A study of Homo sapiens with 6 samples.

Results

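NR1H2 and NR1H3, which encode the liver X receptors LXRβ and LXRα, and 5 known LXR target genes (ABCA1, ABCG1, APOE, MYLIP and LPCAT3) were followed in 6 RNA sequencing libraries of CAL27, an established human oral carcinoma cell line. These 7 genes were taken by symbol from the 30178 genes of the deposited expression table, 1 Ensembl ID each, whatever their values. The libraries come from 3 stable lines with 2 libraries each, A and B. One line carries an empty vector, another expresses wild-type MB21D2 and the last expresses MB21D2 Q311E, in which a glutamine is replaced by a glutamate. MB21D2 is a protein of the Mab-21 family, to which the DNA sensor cGAS also belongs. Per the labels, the expressed proteins are fused to GFP, expression of both MB21D2 forms is constitutive, and all lines were kept under the selection drug G418, the vector line included. No promoter is named, and the labels say neither whether a line is 1 clone nor whether A and B are separate cultures. The p-values therefore measure only the spread between these libraries, which may be technical, and what differs between the stable lines for other reasons cannot be told apart from the expressed protein. The study's stated comparison is the mutant against the wild-type form.

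LXRα and LXRβ are nuclear receptors that bind oxysterols, the oxidised forms of cholesterol, and pair with a retinoid X receptor (RXR) on target genes. Their best known targets move cholesterol out of the cell: ABCA1 loads it onto apolipoproteins, ABCG1 passes it to lipoprotein particles, and APOE is an apolipoprotein that carries it. MYLIP, also called IDOL, is a ubiquitin ligase that sends receptors of the lipoprotein uptake family to degradation, and LPCAT3 builds polyunsaturated fatty acids into phospholipids. A separate sterol sensor acts the other way round: when membrane cholesterol is low, SREBP2 (gene SREBF2) and SREBP1 (gene SREBF1) switch on the enzymes that make cholesterol. Efflux genes and synthesis genes are therefore commonly read side by side.

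The promoters of ABCA1 and SREBF2 are shown because they hold the DNA letters through which the receptor and the SREBP proteins are known to act. LXR with RXR binds 2 copies of AGGTCA spaced by 4 bases. Windows from 250 bases before to 50 bases after each gene start (RefSeq, GRCh38.p14) were searched on both strands, with at most 2 mismatches. Such a match was found in 822 of 35116 windows (2.34%). Of the 7 genes, 6 had a window (11 windows in all, none for ABCG1), and ABCA1 alone held a match, in the reverse orientation, 69 to 54 bases before its start. A sterol regulatory element, read here as ATCACCCCAC without mismatch, was in 16 windows (0.0456%). It was in the window of SREBF2, 134 to 125 bases before the start, in none of the 11 windows of the LXR receptors and targets, and in none of 20 windows of 15 sterol synthesis genes. These are matches of letters in a short window only. The 250 bases upstream of ABCA1 (chr9:104928156-104928405, minus strand) and of SREBF2 (chr22:41832855-41833104, plus strand) follow, 5′ to 3′, with the match in capitals.
ABCA1: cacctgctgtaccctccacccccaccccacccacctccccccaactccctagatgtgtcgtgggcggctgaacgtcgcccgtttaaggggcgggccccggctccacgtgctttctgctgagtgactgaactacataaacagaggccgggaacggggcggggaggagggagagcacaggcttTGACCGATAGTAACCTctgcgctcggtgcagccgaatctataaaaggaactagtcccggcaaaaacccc
SREBF2: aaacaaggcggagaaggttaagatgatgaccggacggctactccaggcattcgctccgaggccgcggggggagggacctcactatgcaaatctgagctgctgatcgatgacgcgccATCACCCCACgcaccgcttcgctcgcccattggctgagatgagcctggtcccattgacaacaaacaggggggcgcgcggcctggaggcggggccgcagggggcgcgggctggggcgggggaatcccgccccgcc

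Levels are given as FPKM (reads divided by gene length and by library size, so that genes of unequal length can be compared), as mean ± SD over 2 libraries unless single libraries are named. The library totals behind these values lay between 20645410 and 24147306 reads. MB21D2 RNA followed the labels: vector libraries held 7.73 ± 0.825 FPKM, wild-type libraries 105 ± 1.0 and Q311E libraries 27.0 ± 8.18, so the lines compared also differ in how much of the transcript they hold. Markers were counted as reaching 1 FPKM when they did so in any 1 library. All 10 squamous markers did, though PKP1 and KRT14 lay below 1 FPKM in both Q311E libraries. The sum of the 10 was 2030 to 2120 FPKM in vector libraries, 1050 to 1070 in wild-type and 1220 to 1270 in Q311E libraries. KRT14, the keratin of basal epithelium, stood at 729 FPKM in vector, 2.22 in wild type and 0.837 in Q311E. Of 7 macrophage markers in the table, 1 reached 1 FPKM, CD14, whose sum with the rest was 2.42 to 3.89 FPKM in vector, 3.08 to 3.11 in wild-type and 6.01 to 19.5 in Q311E libraries. Of the fibroblast, endothelial and hepatocyte markers, 2 of 9 (COL1A1 and COL1A2), 1 of 5 (CDH5) and 1 of 4 (SERPINA1) reached 1 FPKM, with sums over all libraries of 2.56 to 3.86, 15.5 to 35.6 and 16.6 to 65.5 FPKM. The part of these marker shifts in the results below was not tested. The SD of the log2 difference between libraries A and B over 11481 genes was largest in the Q311E line (0.436), against 0.192 (vector) and 0.145 (wild type).

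The 7 genes stood at very different levels. In the vector line the order was NR1H2 (13.9 ± 0.235), MYLIP (9.95 ± 0.083), LPCAT3 (7.13 ± 0.106), NR1H3 (1.73 ± 0.136), ABCG1 (1.26 ± 0.248), ABCA1 (0.761 ± 0.00558) and APOE (0.626 ± 0.0692), with no overlap between neighbours in that order. In the wild-type line the 4 highest kept that order, while APOE, ABCA1 and ABCG1 all lay at or under 0.122 FPKM, the libraries of APOE and ABCA1 overlapping. In the Q311E line the libraries of MYLIP and LPCAT3 overlapped, as did those of APOE and ABCG1. NR1H2 was thus the more abundant receptor gene in all 6 libraries, and its FPKM rests on a gene length of 5340 bases that gave whole reads, against 3753 bases of exons in GENCODE release 29.

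**Figure D1:**
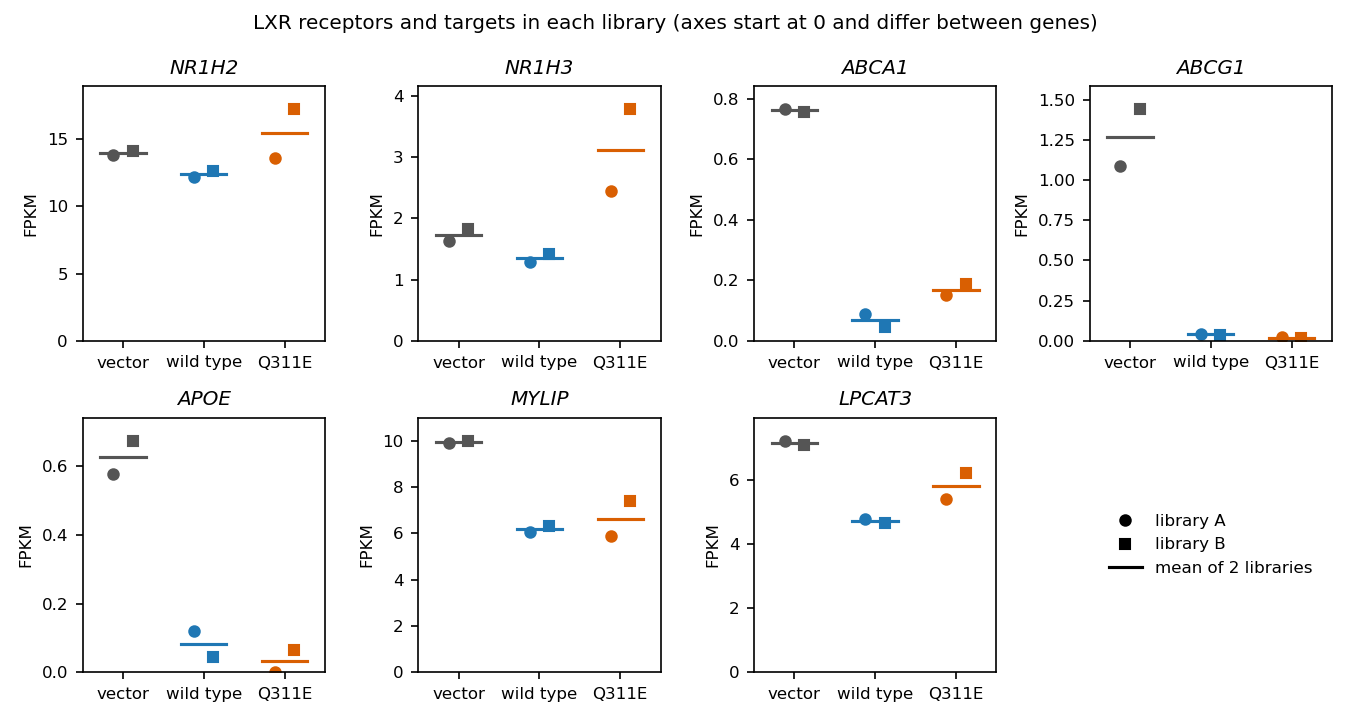
Level in FPKM (vertical axes, each starting at 0) of the 7 genes in the vector, wild-type and Q311E lines; circles are library A, squares library B and lines the mean of 2. The 5 target genes lie below both vector libraries in all 4 libraries with an MB21D2 form, while NR1H3 is highest in the Q311E libraries. Of 15618 genes with at least 10 reads in 2 libraries, 43.7% in wild type and 25.7% in Q311E also lie below both vector libraries.

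Neither receptor gene was called lower in any comparison. NR1H2 (ENSG00000131408, chr19:50329653-50382982, plus strand, GRCh38) stood at 13.8 and 14.1 FPKM in vector libraries A and B, 12.2 and 12.6 in wild type and 13.6 and 17.2 in Q311E. The wild-type libraries lay below the vector libraries, and the Q311E libraries lay on both sides of them. In a limma fit on log2(FPKM + 1) over the 11481 genes with a mean of at least 1 FPKM, NR1H2 passed in no comparison. Its log2 fold change was -0.16 ± 0.12 (SE) for wild type against vector (adjusted p = 0.399), 0.12 ± 0.12 for Q311E against vector (adjusted p = 0.496) and 0.28 ± 0.12 for Q311E against wild type (adjusted p = 0.126). The value against the vector turned to -0.04 without Q311E library B and became 0.28 (adjusted p = 0.0144) without Q311E library A. Without that library the value between the forms was 0.44 and passed too (adjusted p = 0.00229).

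NR1H3 (ENSG00000025434, chr11:47248300-47269032, plus strand) encodes the receptor form that is itself a known LXR target in some cells. It stood at 1.63 and 1.83 FPKM in the vector libraries, 1.29 and 1.42 in wild type and 2.45 and 3.78 in Q311E, and no 2 groups overlapped. Q311E was highest and wild type lowest. NR1H3 rose in Q311E against wild type by 0.79 ± 0.17 on the log2(FPKM + 1) scale (adjusted p = 0.0285), in a comparison where 17.5% of all tested genes were called higher and 10.1% lower. Against the vector it was at -0.22 ± 0.17 in wild type (adjusted p = 0.432) and at 0.57 ± 0.17 in Q311E (adjusted p = 0.078). The rise over wild type lost its call without either vector library (adjusted p = 0.0741 and 0.0745, A and B) and without either wild-type library (adjusted p = 0.167 and 0.156). It did so too with no filter (0.086), with only the 2 groups compared (0.0747) and under quantile scaling (0.0592). Without Q311E library A the change against the vector was 0.81 and passed (adjusted p = 0.00259). NR1H3 shares 189 exon bases (4.17% of its exons) with ACP2 on the other strand, and ACP2 stood at 7.56 and 7.3, 5.23 and 5.72, and 6.98 and 10.9 FPKM in the same libraries. Whether the counting used strand is unknown here.

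The cholesterol exporters ABCA1 and ABCG1 and the carrier APOE had the largest ratios of vector to MB21D2 line among the 7 genes. All 3 were low in the vector line. In the MB21D2 lines ABCG1 and APOE had at most 6 reads in a library and ABCA1 had 11 to 46. Their mean over 6 libraries was under 1 FPKM, so they did not enter the fit above. Reads behind the FPKM values could be recovered, and these show the losses best. In bulk RNA, fewer cells expressing a gene and less RNA in each cell cannot be told apart.

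ABCA1 (ENSG00000165029, chr9:104781002-104928237, minus strand) is the transporter that starts high density lipoprotein formation. It had 208 and 176 reads in vector libraries A and B, 23 and 11 in wild type and 36 and 46 in Q311E, or 0.765 and 0.757, 0.0895 and 0.0458, and 0.15 and 0.189 FPKM. The 3 groups did not overlap, with the vector highest and the wild type lowest. Scaled to library totals, the vector held 11.1-fold more than wild type (exact 95% interval 7.83 to 16.3) and 4.49-fold more than Q311E (3.53 to 5.77), and Q311E held 2.48-fold more than wild type (1.64 to 3.82). These intervals cover counting error only and compare the libraries, not the spread between cultures. In limma-voom on the recovered reads of 15618 genes with at least 10 reads in at least 2 libraries, ABCA1 fell by 3.52 ± 0.35 on the log2 scale in wild type (adjusted p = 0.00525) and by 2.16 ± 0.35 in Q311E (adjusted p = 0.0143). Between the MB21D2 lines it was higher in Q311E by 1.36 ± 0.35 (adjusted p = 0.0351). The difference between the MB21D2 lines lost its call without any 1 library but Q311E A (adjusted p between 0.0545 and 0.166), and the falls did so without either vector library (adjusted p between 0.0766 and 0.128).

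ABCG1 (ENSG00000160179, chr21:42199689-42297244, plus strand) is the half-transporter that hands cholesterol to lipoprotein particles. It had 161 and 182 reads in the vector libraries, 6 and 5 in wild type and 3 and 2 in Q311E, or 1.09 and 1.44, 0.043 and 0.0383, and 0.023 and 0.0151 FPKM. All 4 libraries with an MB21D2 form were far below the vector, and the 2 forms did not overlap. The vector held 30.7-fold more than wild type (17 to 62.1) and 65.7-fold more than Q311E (27.9 to 204), the largest ratios among the 7 genes. In the same limma-voom fit ABCG1 fell by 4.81 ± 0.35 in wild type (adjusted p = 0.00261) and by 5.79 ± 0.36 in Q311E (adjusted p = 0.00151). Between the forms it was at -0.98 (adjusted p = 0.0868), with a read ratio of Q311E over wild type of 0.468 (0.127 to 1.46), and it passed without Q311E library A (-1.23, adjusted p = 0.0173). The fall in wild type missed the threshold without either vector library (adjusted p = 0.0569 and 0.0659).

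APOE (ENSG00000130203, chr19:44905754-44909393, plus strand) had 30 and 30 reads in the vector libraries, 6 and 2 in wild type and 0 and 3 in Q311E. That is 0.577 and 0.675 FPKM in vector, 0.122 and 0.0435 in wild type and 0 and 0.0644 in Q311E, where the last 2 groups overlap and both lie below the vector. The vector held 7.39-fold more than wild type (3.52 to 17.9) and 19.2-fold more than Q311E (6.25 to 95.5). The 0 reads of Q311E library A allow up to 1.73 reads in a library of 10000000 by the exact 95% interval, against 12.4 and 14.5 at that size in the vector libraries. In limma-voom APOE fell by 4.46 ± 0.95 in Q311E (adjusted p = 0.0295) and was at -2.88 ± 0.95 in wild type (adjusted p = 0.0994). In Q311E it fell by 3.07 without Q311E library A and fell by 5.86 without Q311E library B. This fall lost its call without any 1 vector or wild-type library (adjusted p between 0.0691 and 0.181), and the wild-type value passed without either Q311E library (adjusted p = 0.00643 and 0.00589). Between the forms APOE was at -1.57 (adjusted p = 0.25), with a read ratio of Q311E over wild type of 0.386 (0.0659 to 1.61). Without Q311E library B the value was -2.97, which rests on the 0 reads of Q311E library A.

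ABCG1 and APOE reached 10 reads in the vector libraries alone, so they entered that fit through the group where they are high, and their passing is no separate support. Without any filter on low values (limma on log2(FPKM + 1), 30178 genes), the 3 genes were called lower in both lines. The adjusted p was 0.0296 for ABCA1, 0.0296 for ABCG1 and 0.0484 for APOE in wild type, and 0.0275, 0.0195 and 0.0272 in Q311E, in the same order. In that fit 0.954% of genes were called lower in wild type and 1.89% in Q311E. No call among the 3 was made between the forms, where the added 1 FPKM keeps differences of such low genes near 0. Of the calls against the vector, those of ABCA1 and APOE were each lost in 4 of the 6 fits with 1 library left out, in both lines. With the library letter as a block, or without either wild-type library, all 6 of these calls were lost (adjusted p between 0.0663 and 0.239).

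MYLIP and LPCAT3, the more abundant targets, were lower too, by less. MYLIP (ENSG00000007944, chr6:16129125-16148248, plus strand) stood at 9.89 and 10.0 FPKM in the vector libraries, 6.05 and 6.33 in wild type and 5.87 and 7.38 in Q311E, with 734 and 635, 424 and 415, and 384 and 490 reads. Both MB21D2 lines lay below the vector and overlapped each other. MYLIP fell by 0.61 ± 0.11 in wild type (limma, adjusted p = 0.0314) and by 0.53 ± 0.11 in Q311E (adjusted p = 0.0337). Q311E against wild type gave 0.08 ± 0.11 (adjusted p = 0.624), a value that turned to -0.03 under median or quantile scaling and to -0.07 without Q311E library B. It was 0.22 and passed without Q311E library A (adjusted p = 0.0384). Without any 1 vector or wild-type library the falls kept their size but missed the threshold (adjusted p between 0.174 and 0.23 in wild type, and between 0.106 and 0.189 in Q311E). The fall in wild type also missed it under median scaling (adjusted p = 0.0513), quantile scaling (0.0566) and no filter (0.0861), and that in Q311E with no filter (0.0801) and with only the 2 groups compared (0.106).

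LPCAT3 (ENSG00000111684, chr12:6976186-7018510, minus strand) stood at 7.21 and 7.06 FPKM in the vector libraries, 4.77 and 4.66 in wild type and 5.4 and 6.21 in Q311E. The groups did not overlap, with the vector highest and Q311E between. It fell by 0.51 ± 0.09 in wild type (adjusted p = 0.0278) and was at -0.26 ± 0.09 in Q311E (adjusted p = 0.107). Q311E against wild type gave 0.25 ± 0.09 (adjusted p = 0.0925). The value between the forms was 0.34 and passed without Q311E library A (adjusted p = 0.0102), and that of Q311E against vector was -0.35 and passed without Q311E library B (adjusted p = 0.0163). The fall missed the threshold without any 1 vector or wild-type library (adjusted p between 0.175 and 0.233), under quantile scaling (0.0564) and with no filter (0.0686). LPCAT3 shares 3100 exon bases (65.6% of its exons) with EMG1, a ribosome assembly gene on the other strand, so its reads cannot be fully told apart from those of EMG1 if strand was not used. EMG1 itself stood at 13.9 and 13.8 FPKM in vector, 12.2 and 12.8 in wild type and 9.9 and 8.73 in Q311E, lowest in the line where LPCAT3 lay between the others.

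Of the 4 genes in the main fit, wild type against vector gave 2 called lower and none higher, where 8.76% of all tested genes were called lower and 3.54% higher. Q311E against vector gave 1 called lower and none higher, where 9.28% were called lower and 8.67% higher. Q311E against wild type gave 1 called higher and none lower, near the 17.5% called higher among all tested genes. All 4 values between the forms were above 0 with all libraries, and also without Q311E library A. The latter fit leaves library B alone in the Q311E line, so no calls are counted from it. The split of calls depends on the scaling: under median scaling 47.8% of the calls for wild type against vector were higher, against 28.8% in the main fit, and 40.0% for Q311E against wild type, against 63.4%. In limma-voom, where 9.18% of genes were called lower in wild type and 6.61% in Q311E, MYLIP and ABCA1 were called lower in both lines and LPCAT3 in wild type. The calls of ABCG1 and APOE are left out of that comparison, since they entered the fit through the vector libraries, where they are high. ABCA1 and NR1H3 were called higher in Q311E than in wild type, where 19.5% of genes were. All 5 targets lay below both vector libraries in both lines, as did 43.7% of the 15618 genes with enough reads in wild type and 25.7% in Q311E, and nothing is read from that count for the same reason. Both lines were set against the same 2 vector libraries, so the likeness of these counts is no separate result.

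RXR partners and cofactors were present in every line. The counts of called genes in this and the following lists stand beside these shares of all tested genes: 3.54% higher and 8.76% lower in wild type against vector, 8.67% and 9.28% in Q311E against vector, and 17.5% and 10.1% between the forms. RXRA, a partner of LXR, stood at 12.1 ± 0.273, 15.5 ± 0.53 and 16.0 ± 3.46 FPKM in vector, wild type and Q311E, and passed in no comparison (adjusted p between 0.143 and 0.915). RXRB stood at 11.8, 9.43 and 13.3 FPKM and passed in none (adjusted p between 0.0882 and 0.534), while RXRG was at 0 in 5 libraries and at 0.018 FPKM in the sixth. Of the 9 tested genes of this list, 1 rose in wild type against vector, NCOA5 (0.58 ± 0.09, adjusted p = 0.0199), and 2 rose in Q311E, the coactivator genes NCOA2 (0.64 ± 0.09, adjusted p = 0.0126) and NCOA3 (0.36 ± 0.08, adjusted p = 0.043). Between the forms NCOA2 and NCOA3 were higher and NCOA5 lower in Q311E. The list medians were 0.34 in wild type, 0.21 in Q311E and 0.02 between the forms, against -0.05, 0.00 and 0.05 over all tested genes. The corepressor gene NCOR1, whose product holds unliganded LXR silent, passed in none (adjusted p between 0.147 and 0.455).

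Other known LXR targets did not follow 1 direction. Of 22, 8 were tested, and the other 14 had a mean under 1 FPKM. SREBF1, which LXR activates and which also drives its own transcription, fell from 57.3 ± 11.2 to 15.7 ± 0.201 FPKM in wild type (log2 -1.79 ± 0.18, adjusted p = 0.0094). It stood at 42.9 ± 8.52 FPKM in Q311E (-0.41 ± 0.18 against vector, adjusted p = 0.174). TTC39B, whose product acts on LXR protein turnover, fell by 0.59 ± 0.13 in wild type (adjusted p = 0.0463). TGM2, a transglutaminase of macrophages and epithelium, rose in wild type by 1.13 ± 0.11 (adjusted p = 0.00891) and in Q311E by 0.69 ± 0.11 (adjusted p = 0.0176). In Q311E against wild type SREBF1 (1.38 ± 0.18, adjusted p = 0.0092) and SMPDL3A, a phosphodiesterase (0.68 ± 0.15, adjusted p = 0.0288), were higher and TGM2 lower. The list medians were -0.19, 0.16 and 0.26.

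Genes of oxysterol synthesis and inactivation were read next, since oxysterols are the ligands of LXR. The list mixes both roles, and ligand levels were not measured. Of 10, 5 were tested, and 3 of these, DHCR7 and EBP among them, also belong to sterol synthesis. DHCR7 and EBP fell in wild type (by 0.84 ± 0.07, adjusted p = 0.00814, and by 0.63 ± 0.09, adjusted p = 0.0188). Both rose in Q311E (0.80 ± 0.07, adjusted p = 0.00562, and 0.50 ± 0.09, adjusted p = 0.0243). All 5 were higher in Q311E than in wild type, CYP39A1 and HSD3B7 included (0.73 ± 0.17, adjusted p = 0.0319, and 0.80 ± 0.15, adjusted p = 0.0194). CH25H and CYP27A1, enzymes that make hydroxylated cholesterol, lay between 0.0834 and 0.316 FPKM and between 0 and 0.065 FPKM over the 6 libraries, too low to be tested.

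Among receptors that MYLIP acts on, VLDLR rose in Q311E against vector by 0.73 ± 0.15 (adjusted p = 0.0315) and against wild type by 0.57 ± 0.15 (adjusted p = 0.0445). LRP8 passed in no comparison (adjusted p between 0.119 and 0.413). Of the 13 tested genes of sterol storage, export and transfer, 2 fell in wild type, STARD4 and LIPA, the lysosomal acid lipase. In Q311E 4 rose and 2 fell, the latter SCARB1, the receptor for high density lipoprotein (27.7 to 18.5 FPKM, log2 -0.57 ± 0.12, adjusted p = 0.033), and CAV1 (-0.65 ± 0.10, adjusted p = 0.0139).

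The estimates of the sterol synthesis genes lay below 0 in wild type, as did those of the 5 targets, and mostly above 0 in Q311E. In wild type against vector all 20 were below 0, 11 were called lower and none higher, with a median of -0.70 on the log2(FPKM + 1) scale (range -1.29 to -0.22). In Q311E against vector 17 were called higher and none lower, with a median of 0.86 (-0.15 to 1.71). The 3 that were not called were PMVK, CYP51A1 and NSDHL. The medians over all 11481 tested genes were -0.05 and 0.00. Over the 5 targets, by the same scale and without a filter for the 3 low ones, every value against the vector lay between -0.51 and -1.12 in wild type and between -0.26 and -1.15 in Q311E. For the 3 low genes these values understate the fall, since 1 FPKM is added before the logarithm. LPCAT3 was not called in Q311E (limma, adjusted p = 0.107). Among genes with enough reads, 43.7% in wild type and 25.7% in Q311E lay below both vector libraries, so nothing is read from the shared direction of the 5.

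HMGCS1, an early enzyme of the pathway, stood at 11.1 ± 0.248, 5.6 ± 0.0287 and 40.6 ± 18.8 FPKM and rose in Q311E by 1.70 ± 0.30 (adjusted p = 0.0209), with -0.88 ± 0.30 in wild type (adjusted p = 0.114). SREBF2, whose promoter is printed above, changed in the directions of these enzymes. It stood at 38.1 and 42.7 FPKM in the vector libraries, 19.8 and 19.2 in wild type and 59.6 and 65.0 in Q311E, so it fell by 1.01 ± 0.09 (adjusted p = 0.00838) and rose by 0.61 ± 0.09 (adjusted p = 0.0143). INSIG1, which holds SREBP in the endoplasmic reticulum, and SCD, a fatty acid desaturase that LXR and SREBP1 both control, fell in wild type by 2.81 ± 0.24 and 2.90 ± 0.14 (adjusted p = 0.00743 and 0.00232). In Q311E they were at 0.56 ± 0.24 and 0.46 ± 0.14 against the vector (adjusted p = 0.161 and 0.0832).

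Library by library the pattern was the same within each line. Relative to the vector mean, the median of the sterol synthesis genes was at -0.71 and -0.75 in wild-type libraries A and B and at 0.95 and 0.78 in Q311E A and B. ABCA1 was at -0.69 and -0.75, then at -0.61 and -0.57. ABCG1 was at -1.11 and -1.12, then at -1.14 and -1.15. In the Q311E libraries the 5 targets thus lay below 0, where the synthesis median lay above it, and in the wild-type libraries both lay below. The added 1 FPKM limits how far genes as low as ABCA1, ABCG1 and APOE can fall on this scale. By reads the vector held 11.1-fold more ABCA1 and 30.7-fold more ABCG1 than wild type. Only directions, not sizes, can therefore be set beside the synthesis median for these genes. NR1H3 was at -0.26 and -0.18 in wild type and at 0.34 and 0.81 in Q311E, on the side of the synthesis genes in all 4 libraries.

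**Figure D2:**
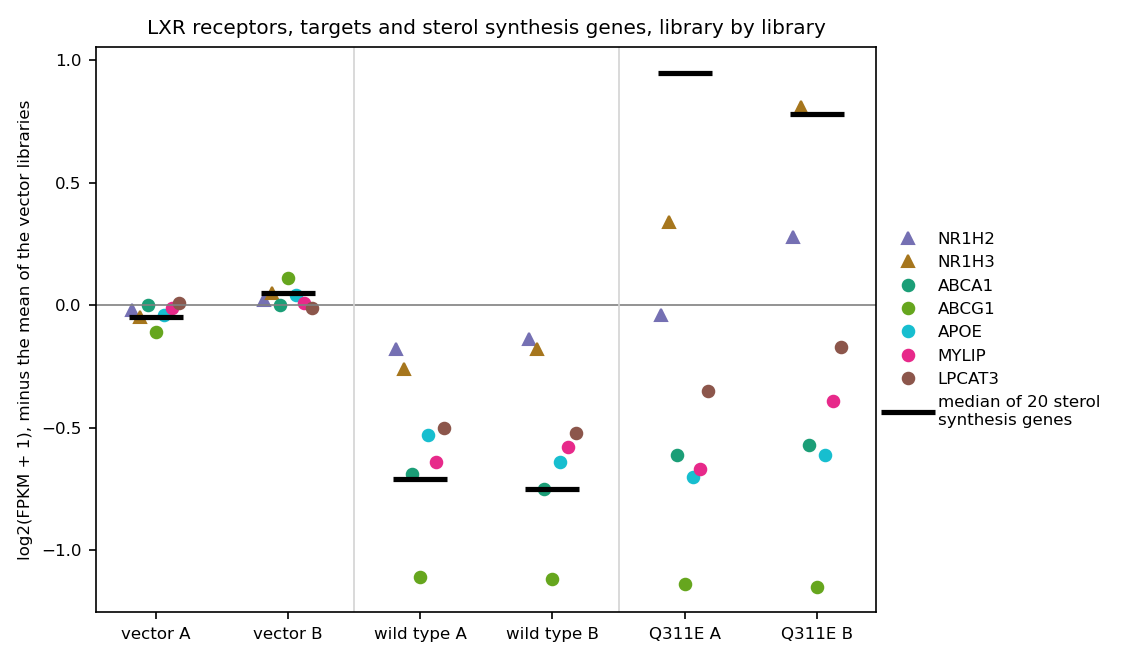
Log2(FPKM + 1) minus the mean of the vector libraries (vertical axis) in each of the 6 libraries; triangles are the receptor genes, circles the targets and black bars the median of 20 sterol synthesis genes. In Q311E libraries the bar lies at 0.95 and 0.78 while the targets lie between -0.17 and -1.15. This scale understates the falls of the low genes ABCA1, ABCG1 and APOE.

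Between the forms 19 of the 20 synthesis genes were higher in Q311E, with a median of 1.57 (0.19 to 2.77), where the all-gene median was 0.05. The largest value was that of MSMO1 (2.77 ± 0.10, adjusted p = 0.00164), a sterol methyl oxidase. Of the 5 targets none was called between the forms on that scale, with values of 0.08 for MYLIP, 0.25 for LPCAT3, 0.13 for ABCA1, -0.03 for ABCG1 and -0.07 for APOE. The last 3 genes lay at or under 0.189 FPKM in both MB21D2 lines, where the added 1 FPKM keeps differences near 0. Their missing calls on that scale therefore do not show that they were alike. On recovered reads the values were 1.36 for ABCA1, -0.98 for ABCG1 and -1.57 for APOE. Of these only ABCA1 was called, higher in Q311E, as given above. The count for wild type against vector became 0 without any 1 vector or wild-type library and 20 without either Q311E library. The count for Q311E against vector became 0 without either vector library and 5 and 6 without wild-type libraries A and B, and that between the forms became 0 without either wild-type library.

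**Figure D3:**
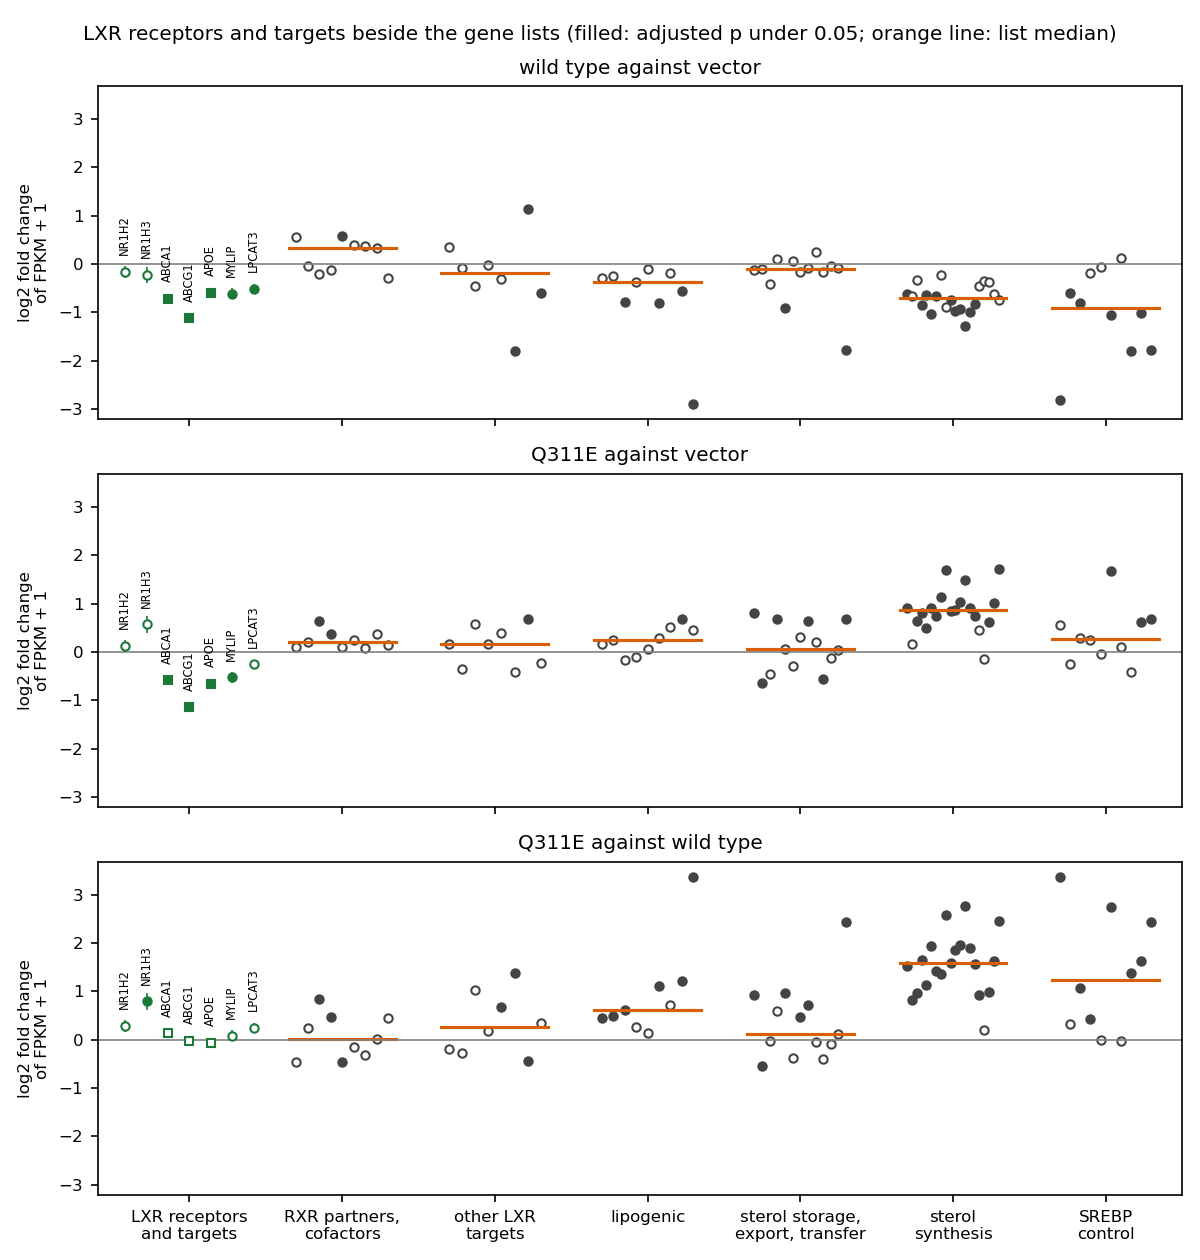
Log2 fold change of FPKM + 1 (vertical axes) of the LXR receptors and targets (green; squares are the 3 low genes, fitted without a filter; bars are SE) and of 6 gene lists (grey) in the 3 comparisons; filled symbols passed at an adjusted p under 0.05 and orange lines are list medians. The sterol synthesis median goes from -0.70 to 0.86 between the comparisons with the vector, while the estimates of the green target genes are below 0 in both. This scale understates the changes of the 3 low genes.

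The control genes of the SREBP pathway and the lipogenic genes had medians below 0 in wild type and above 0 in Q311E, each against the vector. Of 10 SREBP control genes, 7 fell in wild type (median -0.91), where 8.76% of all tested genes were called lower, and 3 rose in Q311E (median 0.27), where 8.67% were called higher. Between the forms 7 were higher in Q311E (median 1.23), where 17.5% of all tested genes were. SREBF2 and STARD4, a sterol carrier (0.67 ± 0.14, adjusted p = 0.0301), were among the 3 that rose in Q311E. Of 9 lipogenic genes 4 fell in wild type, SCD, ACSL3, FADS1 and FASN (median -0.36). In Q311E 1 rose, FASN, the fatty acid synthase (0.67 ± 0.11, adjusted p = 0.0172, list median 0.25), and 6 were higher in Q311E than in wild type (median 0.62).

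The neighbours of ABCA1 on chromosome 9 moved the other way. Of the 30 nearest tested genes, 15 on each side (98731329 to 111484745), 14 were called higher in wild type and none lower, with a median of 0.48, where 3.54% of all tested genes were called higher. In Q311E 16 were called higher and 1 lower, with a median of 0.50, where 8.67% of all tested genes were called higher. Between the forms the median was 0.03. ABCA1 itself was at -0.72 ± 0.06 and -0.59 ± 0.06 on the same scale without a filter. For the other genes the neighbours' medians against the vector lay between -0.26 (LPCAT3, wild type) and 0.34 (MYLIP, Q311E). For LPCAT3, 2 of 30 neighbours were called lower in wild type and 23 lay below 0. A change in the number of gene copies was not tested.

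**Figure D4:**
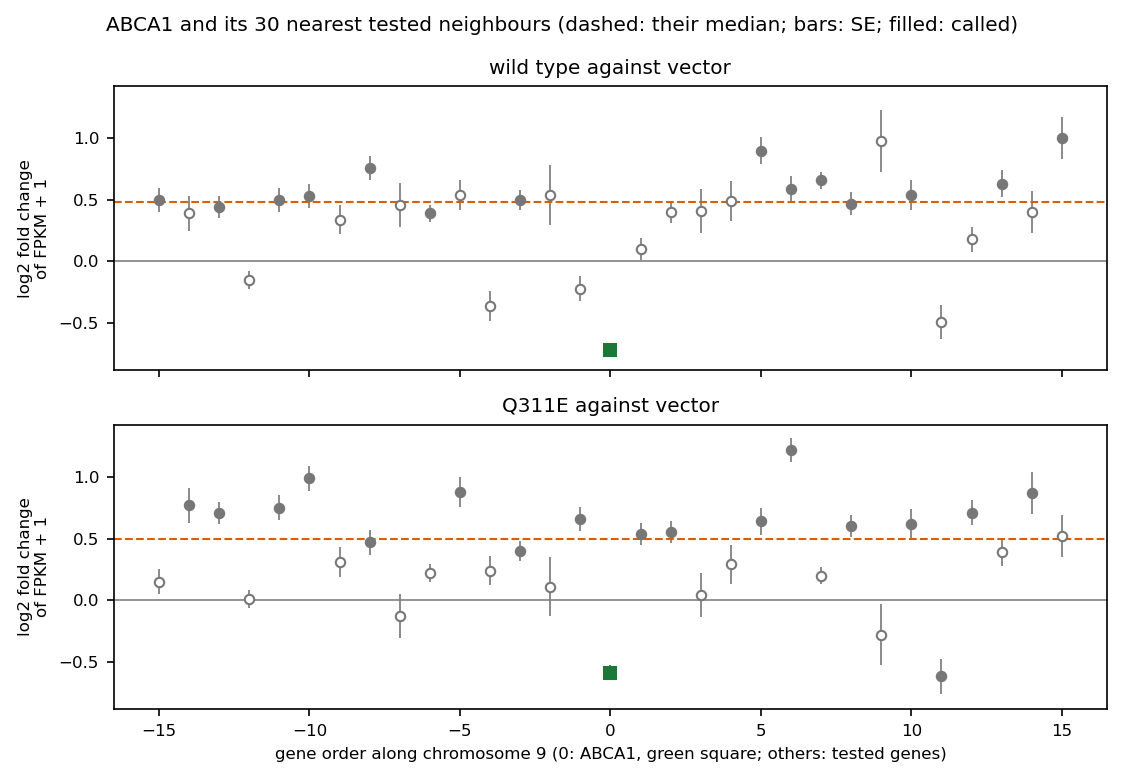
Log2 fold change of FPKM + 1 (vertical axes, bars are SE) of ABCA1 (green square) and its 15 nearest tested genes on each side (grey circles), in gene order along chromosome 9, for each MB21D2 line against the vector; filled symbols passed at an adjusted p under 0.05 and dashed lines are the neighbours' medians, 0.48 and 0.50. ABCA1 lies below the line of 0 while most neighbours lie above it.

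For each of the 4 tested genes, the 3 genes with the most similar profile were taken by Pearson's r of log2(FPKM + 1) over the 6 libraries, as a description. With 3 groups of 2 many genes reach high values: 206 (MYLIP) to 575 (NR1H3) genes had an r above 0.95. Nearest to NR1H2 were CROCC (0.997), CREG1 (0.997) and LINC01003 (0.995), all highest in Q311E library B. Nearest to NR1H3 were DNAJC4, PLD3 and RRAGA (0.998 each). MYLIP was nearest to COX8A (0.997), PDPN (0.995) and FBXO32 (0.994), and LPCAT3 to SNX27 (0.999), TSEN34 (0.999) and SIRT2 (0.997). None of these 12 genes is on the lists of sterol genes.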

How the data were processed

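Per the labels' protocols, QIAGEN material served for RNA extraction and Illumina protocols for the libraries, 2 in each of 3 groups. The authors deposited 1 table of FPKM values, per the file's name. The submitters' processing notes name CASAVA and, with no role, the builds mm8 and mm9, which are of mouse, while the gene IDs are human. Not given in the sources used here are the aligner, counter, annotation and strand setting.

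Symbols matched 29993 of 30178 IDs, and positions came from GENCODE release 29 on GRCh38. Low FPKM values are whole multiples of the value of 1 read. Whole reads (tolerance 0.001) were recovered for 30030 genes and for 11471 of the 11481 tested ones (99.91%). The GENCODE 29 exon length gave them for 22361 genes, and for the rest the length was fitted (0.25 to 4 times that length). Columns not used numbered 0.

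The tests were made on log2(FPKM + 1) with limma 3.58.1 (R 4.3.3), all 3 groups in 1 fit with a variance trend and 3 residual degrees of freedom, for genes with a mean of at least 1 FPKM. A gene was called, and said to rise or fall, when its two-sided p, adjusted by Benjamini-Hochberg over all genes tested, was under 0.05. This scale understates changes of low genes. Limma-voom on recovered reads with at least 10 reads in 2 libraries, and the further alternatives for the 3 low genes, were chosen after seeing the data. The fit was tested on simulated data. Other steps used Python 3.11.15, numpy 2.4.6, pandas 2.3.3, scipy 1.17.1 (exact binomial and Poisson intervals) and matplotlib 3.10.9.

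The genes and the 15 lists (142 symbols, 135 in the table) were chosen with earlier results of these data known. Named genes were the 7 genes, MB21D2, a fixed set with SREBF1, SREBF2, HMGCS1, INSIG1 and SCD, up to 3 called genes of smallest p per other list and comparison, and the 3 most similar to each tested gene. Others, such as RXRA, RXRB, RXRG, NCOR1, LRP8, CH25H, CYP27A1, PMVK, NSDHL, SCARB1, KRT14, ACP2 and EMG1, were named for their role, their overlap or a count after values were seen. A few genes of the lists are not reported by name here. The alternatives were another pseudocount (0.1), no filter or a mean of at least 5 FPKM, median, quantile and TPM scaling, the library letter as a block, only the 2 groups compared, limma-voom, and each library left out.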

Additional observations from a re-analysis of the deposited data

Results flagged for a closer look

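The effects of the 2 MB21D2 forms against the same vector libraries differed for the 6 genes given here, by the test of Q311E against wild type in the limma fit on log2(FPKM + 1), adjusted over all 11481 genes. In that test 17.5% of all tested genes were called higher and 10.1% lower, so a call by itself was common. For NR1H3, the LXRα gene, the difference was 0.79 (adjusted p = 0.0285), higher in both Q311E libraries than in both wild-type libraries. This call was lost under 7 of the other settings, as given above. For the SREBP genes the difference was 1.38 for SREBF1 (adjusted p = 0.0092) and 1.63 for SREBF2 (adjusted p = 0.00183). For a synthesis enzyme it was 2.58 for HMGCS1 (adjusted p = 0.00741). For INSIG1 it was 3.37 (adjusted p = 0.0028) and for SCD 3.36 (adjusted p = 0.00164). NR1H2, MYLIP and LPCAT3 were at 0.44, 0.22 and 0.34 without Q311E library A, which leaves library B alone in that line. With all libraries these 3 genes did not pass that test (adjusted p between 0.0925 and 0.624). ABCA1, ABCG1 and APOE did not pass it without a filter (adjusted p between 0.304 and 0.903), where the added 1 FPKM keeps differences of such low genes near 0. In limma-voom on recovered reads ABCA1 passed (1.36, adjusted p = 0.0351). With 2 libraries per line, what sets the lines apart besides the expressed form cannot be told apart from it.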

How the results depend on the processing

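With 2 libraries per group, 3 residual degrees of freedom and few reads for 3 genes, calls depended on the settings, while directions mostly did not. Of 687 single-gene values under other settings, 537 stayed on their side of the threshold, 124 missed it, 22 newly passed and 4 reversed. The reversals were NR1H2 in Q311E against vector without Q311E library B (-0.04) and MYLIP in Q311E against wild type under median scaling (-0.03), quantile scaling (-0.03) and without Q311E library B (-0.07). Without Q311E library A these values were 0.28 and 0.22. Of the 7 genes, 4 entered the main fit, and all 7 entered limma-voom at 10 reads and the fit without a filter. For wild type against vector 2 were called, but 4 with limma-voom at 10 reads, 3 without a filter, 1 with median scaling and 0 with quantile scaling. For Q311E against vector 1 was called, but 4 with limma-voom at 10 reads, 3 without a filter and 0 with only the 2 groups compared. The counts against vector at 10 reads include ABCG1, and in Q311E APOE too. Both entered that fit through the vector libraries, so nothing is read from these counts. There 9.18% of all genes were called lower in wild type and 6.61% in Q311E. Without a filter 0.954% were called lower in wild type and 1.89% in Q311E. Between the forms 1 was called, but 2 with limma-voom at 10 reads and 0 with a mean of at least 5 FPKM (which leaves NR1H3 out), without a filter, with only the 2 groups or with quantile scaling. Sterol synthesis calls went from 11 to 7 without a filter and to 20 with only the 2 groups for wild type against vector, and from 17 to 5 with only the 2 groups for Q311E against vector. Calls over all genes were 1412, 2061 and 3162 in the 3 comparisons, 393, 1210 and 1608 without a filter, and 5210, 275 and 980 with only the 2 groups. Leaving out 1 library gave 0 to 2, 0 to 3 and 0 to 4 called among the 7 genes, 0 to 20, 0 to 18 and 0 to 19 sterol synthesis genes, and 7 to 5238, 3 to 5662 and 0 to 6939 genes in all. The library left alone is then assumed to vary like the other groups, and the cause of these shifts was not tested.

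The letters A and B did not pair the libraries of all lines. The A minus B differences correlated at -0.03 (vector and wild type) and -0.01 (wild type and Q311E), but at 0.39 for vector and Q311E. What those lines share by letter was not tested. With the letter as a replicate block 2, 1 and 1 of the 7 genes, 13, 17 and 19 sterol synthesis genes and 1299, 1942 and 3264 genes in all were called. Quantile scaling gave 43.9% higher calls for wild type against vector and 44.7% between the forms, against 28.8% and 63.4%. The other settings left the counts within 1.5 times.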

Other observations

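Among the 14 other LXR targets with a mean under 1 FPKM, a few stood well above their low level in 1 line. These were picked after their values were seen and were not tested. MERTK, a receptor for the uptake of dying cells, stood at 0.256 and 0.206 FPKM in vector libraries A and B, 0.429 and 0.519 in wild type and 2.46 and 1.98 in Q311E, so its Q311E libraries lay above all others. MLXIPL, the gene of the sugar-sensing factor ChREBP, stood at 0.0086 and 0.0704, 0.0364 and 0.039, and 0.342 and 1.86 FPKM in the same order. PLTP, which transfers phospholipids between lipoproteins, went the other way, with 1.42 and 1.03 in vector, 0.897 and 0.683 in wild type and 0.037 and 0.51 in Q311E. ABCG5 and ABCG8, the sterol exporters of liver and gut, were at 0.0118 FPKM or below in all 6 libraries.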
